A study of Mus musculus with 16 samples.

Results

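The Bcl11b locus is described here as the gene and the gene-poor stretch that follows it on mouse chromosome 12. Its members were all H3K27ac and DNase islands on chromosome 12 from 108200001 to 109300000 of the build mm9, an interval fixed by position and not by any measured value. They numbered 556 of the 469755 islands in the 16 lists of the study, 267 of them from H3K27ac lists and 289 from DNase lists. Bcl11b lies near 109.149 to 109.242 Mb on the minus strand, so its transcription start is at the high coordinate and the desert downstream of it runs towards lower coordinates. The interval was read in 4 segments: the gene segment (109140001 to 109250000), the near desert (108670001 to 109140000), the far desert (108200001 to 108670000) and a short upstream flank (109250001 to 109300000). No island crossed the edges of the interval.

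The cells were CD4 T cells of Bcl11b[fl/fl]-CreERT2 mice on a C57BL/6 background, grown towards the T helper 2 (Th2) fate. All groups share the floxed Bcl11b alleles and the Cre, which acts once 4-hydroxytamoxifen (4-OHT) is present. Early cells were taken after 4 days under Th2 conditions, early WT without 4-OHT and early KO with it. Late cells went through the same 4 days, rested in IL-2 for 1 day and were then cultured under Th2 conditions for another 4 days, and 4-OHT was added for late KO in that second culture only. Each group had 2 libraries for H3K27ac and 2 for DNase-seq. No WT cells received 4-OHT, so loss of Bcl11b and exposure to the drug cannot be told apart. The labels do not say that the libraries of a group came from separate cultures or animals, so the p-values speak only for the spread among these samples, and that spread may be technical. The labels name naive cells but a gate for high CD44, and this was left as it stands.

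Bcl11b is a zinc finger transcription factor that cells of the T lineage switch on when they commit to that fate, and mature T cells keep it on. Its activation in T cell precursors is known to depend on Notch signalling and on the factors GATA3, TCF-1 and Runx1, and on an enhancer that lies far downstream of the gene in the desert. H3K27ac marks active promoters and enhancers, and DNase-seq finds open chromatin. An island is a run of enriched windows of 200 bp joined by the caller, and its length in kb is the quantity compared below. Neither assay reads the Bcl11b transcript or protein, and the part of the gene that Cre removes is not given in the sources used here, so the deletion itself was not checked.

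The promoter is shown because the H3K27ac island over it is among the 50 best of every list and because the known activators bind DNA through short words. These are the 250 bases before the transcription start, on the minus strand of chromosome 12 in RefSeq's GRCm38.p6 (chr12:108003415-108003664), a later build than that of the islands. Capitals mark the single match to the TCF word.
Bcl11b promoter: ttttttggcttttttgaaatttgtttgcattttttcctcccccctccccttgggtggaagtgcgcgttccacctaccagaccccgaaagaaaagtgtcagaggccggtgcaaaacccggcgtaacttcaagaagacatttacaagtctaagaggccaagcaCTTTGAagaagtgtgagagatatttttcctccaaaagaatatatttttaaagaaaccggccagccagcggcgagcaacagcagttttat
The word CTTTGA, read by TCF-1 and its relatives, starts 89 bases before the start (position -89) on the coding strand. On both strands it occurs in 13.83% of 32851 mouse promoters of the same length. The GATA words AGATAA and TGATAA (9.988% and 7.942% of promoters), the RUNX word TGTGGT (14.05%) and the RBPJ word TGGGAA (21.59%), RBPJ being the DNA-binding partner of Notch, had no match in this window. The GATA words share the core GATAA, and no other pair overlaps in this window. The promoter has 44.8% G and C, against a median of 52.4% over all promoters. In the order of genes in GRCm38, Bcl11b is followed downstream by the long noncoding RNAs Gm33341, 4930465M20Rik and Gm33236 and then by the pseudogenes Gm9006 and Gm17052, and upstream by the protein-coding genes Setd3, Ccnk and Ccdc85c.

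Each library is a list of islands without read counts, so the depth behind it is unknown, and an absent island says only that the list does not hold it. The H3K27ac lists held 26548 to 32112 islands over 100.9 to 111.7 Mb, of which 27 to 44 islands lay in the locus. The DNase lists were less even, with 17397 to 39736 islands over 25.9 to 66.8 Mb and 26 to 51 islands in the locus. The 2 late KO lists were the shortest DNase lists, with 25.9 and 26.2 Mb covered. The tissue label could not be checked at T cell marker genes because no mm9 annotation was used here.

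Over the gene itself H3K27ac was broad and dense in every library. Of the 110 kb of the gene segment, early WT libraries had 95 and 90.4 kb inside islands and early KO libraries 98.0 and 95.6 kb. Late WT libraries had 89.6 and 81.0 kb there and late KO libraries 89.6 and 86.0 kb. The genotypes overlapped, and the late libraries lay below the early ones. KO exceeded WT by 3.3 kb over both stages (92.3 ± 5.49 against 89.0 ± 5.84 kb, SD, n = 4, exact two-sided permutation p = 0.5143, adjusted p = 0.5923 over 12 tests of this kind). Late lists covered 8.2 kb less than early lists, and all 4 were below the 4 early ones (86.55 ± 4.07 against 94.75 ± 3.18 kb, SD, n = 4, exact permutation p = 0.0286, the smallest that 4 against 4 allows, adjusted p = 0.1144). Of the 110-kb windows of the genome, 9.56% showed such an order and 8.5% the reverse. None of the 11 bins of 10 kb in the segment passed in limma for KO against WT at either stage, and none had an unadjusted p under 0.05. Bins that are full cannot gain, and 6 of the 110 bins of the locus were covered over all 10 kb in all 8 H3K27ac lists. The bins at 109160001 and 109200001 in the gene and at 108360001 in the far desert were among them.

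The island over the transcription start stood at the top of every H3K27ac list and differed in reach. By the authors' score it ranked 15 to 50 in its list, at percentile 99.8 to 100. Early WT lists gave it 60.4 and 48.8 kb, early KO lists 89.2 and 89.4 kb, late WT lists 48.2 and 46.2 kb and late KO lists 47.2 and 47.8 kb. The 2 early KO islands were thus the longest and ran without a break to 109156001, near the 3' end of the gene. The gene segment held 3 and 2 islands in the early KO lists and 4 to 6 in each of the other 6 lists. The bin with the start, at 109240001, went from 4.8 and 5.0 kb in early WT to 7.8 and 5.4 kb in early KO (log2 change 0.33, SE 0.18, limma adjusted p = 0.352). Of the 7.8 kb, 2.6 kb is a separate island upstream of the start, at 109245801 to 109248400, held by early KO replicate 1 alone. Without early KO replicate 2 the log2 change of the bin was 0.62, which rests on that 1 library. Late lists had 5.4 and 5.0 kb there for WT and 5.2 and 5.0 kb for KO (limma adjusted p = 0.988).

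**Figure D1:**
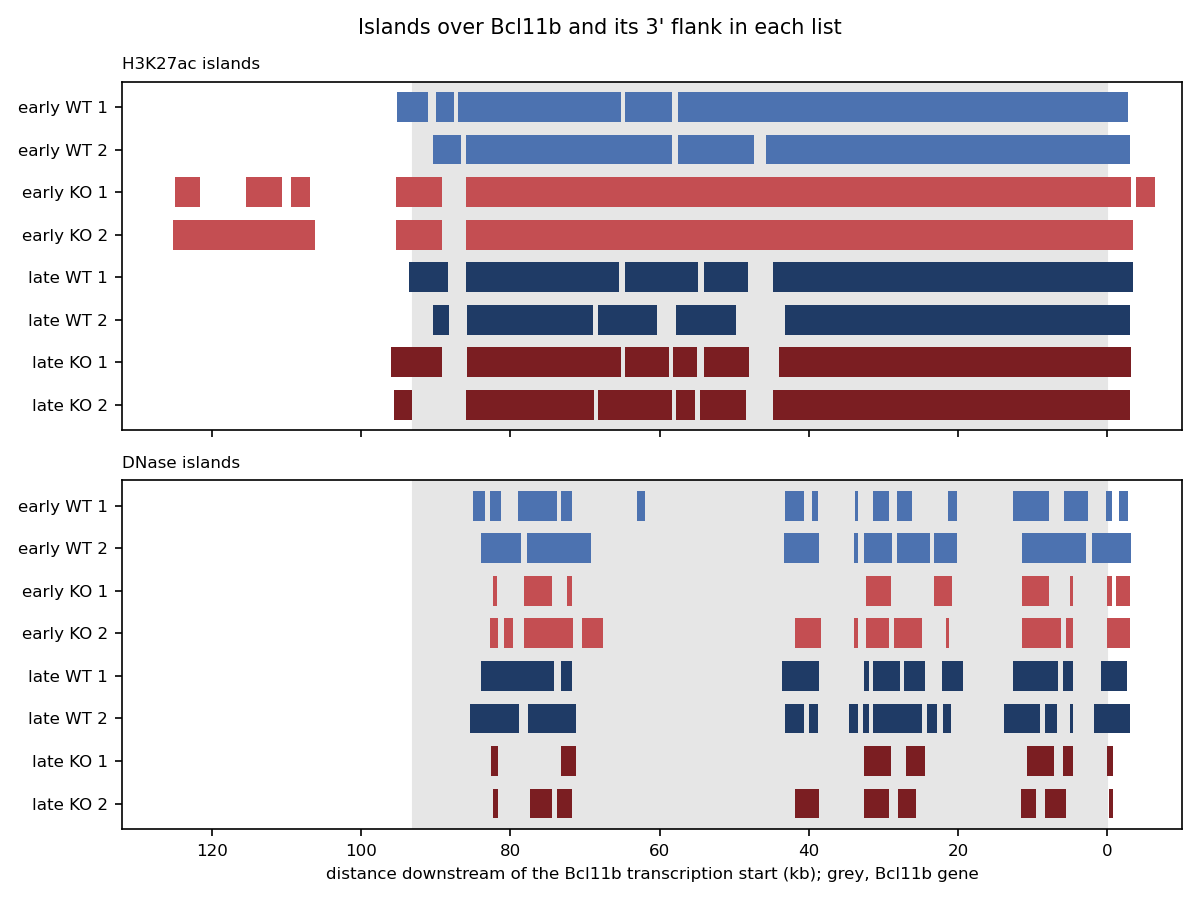
Islands over Bcl11b and the flank beyond its 3' end in each of the 16 lists, with distance downstream of the transcription start in kb on the horizontal axis and the gene in grey. H3K27ac islands fill most of the gene in all 8 lists, early KO lists alone have the block of islands between 109116801 and 109135800, to the left of the gene, and late KO lists hold 7 and 9 DNase islands in the gene segment, where the other lists hold 9 to 15.

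One short stretch near the 3' end of the gene went the other way. The 3.2 kb from 109152801 to 109156000 held no H3K27ac island in any of the 4 KO lists. Early WT lists covered 2.6 and 2.6 kb of it and late WT lists 0.8 and 1.0 kb. Within it the 800 bp from 109152801 to 109153600 were the only windows of the segment held by every WT and no KO list, 4 of 510 windows covered in any list, where such windows made up 0.368% of all covered windows of the genome. A single window, at 109146601, was held by every KO and no WT list (1.24% in the genome). No DNase list had an island in the 3.2 kb. This stretch was chosen after its values were seen, it was given no test, and whether it lies in the deleted part of the gene cannot be told from the labels.

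Next to the gene, the near desert had the largest ratio of H3K27ac between the genotypes among the 3 segments compared. This is the 470 kb that begins just past the 3' end. Early WT libraries had 25.6 and 25.2 kb of islands there and early KO libraries 70.2 and 83.8 kb. Late WT libraries had 19.8 and 18.6 kb and late KO libraries 48.2 and 44.2 kb. Every KO library lay above every WT library, and the early KO pair lay highest. The mean was 3.03 times higher in early KO (77.0 ± 9.6 against 25.4 ± 0.28 kb) and 2.41 times higher in late KO (46.2 ± 2.8 against 19.2 ± 0.85 kb, SD, n = 2 per group). Over both stages the difference was 39.3 kb (exact two-sided permutation p = 0.0286 with n = 4 per genotype, the smallest possible, and adjusted p = 0.1144). It did not pass after adjustment, but no segment test could. Passing needed the smallest p in more of the 12 tests than can reach it. No segment can separate fully both by genotype and by stage. Leaving out 1 library moved the difference between 31.9 and 45.1 kb. In 10.2% of the 470-kb windows of the genome all 4 KO lists lay above all 4 WT lists.

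In the far desert, 470 kb further on, the genotypes also separated, by a smaller factor. Early WT libraries had 74.0 and 72.6 kb of H3K27ac islands and early KO libraries 107.2 and 103.2 kb. Late WT libraries had 80.0 and 79.0 kb and late KO libraries 117.4 and 106.0 kb. Over both stages KO exceeded WT by 32.05 kb, again without overlap (exact two-sided permutation p = 0.0286, n = 4 per genotype, adjusted p = 0.1144). Between early and late libraries neither desert segment separated (exact permutation p = 0.2857 near and 0.5429 far, n = 4 per stage, adjusted p = 0.5144 and 0.5923). The gene, the near desert and the far desert thus had KO to WT ratios of 1.044, 3.031 and 1.435 in early cells and of 1.029, 2.406 and 1.405 in late cells; whether the ratios differ between segments was not tested. Upstream of the gene the 50-kb flank held one short H3K27ac region, at 109260401 to 109261600, with 0.8 kb in early WT replicate 2 and 0.8 and 1.2 kb in early KO, and none in late lists.

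**Figure D2:**
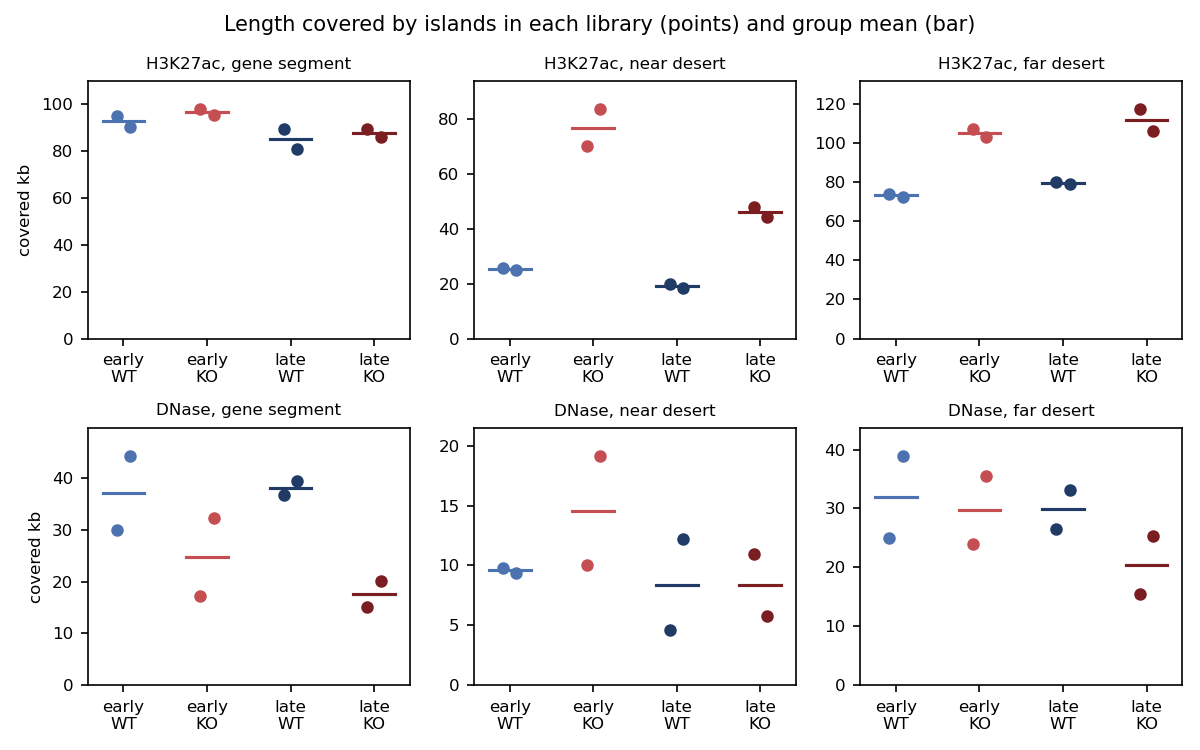
Covered length in kb (vertical axis) of the gene segment, near desert and far desert in each library, as points with the group mean as a bar, for H3K27ac above and DNase below. In both deserts all KO points of H3K27ac lie above all WT points, whereas over the gene they overlap, and for DNase the gene segment has its lowest points in KO libraries.

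Bin by bin, H3K27ac rose at 14 places of the locus in early KO cells and fell at none. Of 110 bins of 10 kb, 59 held enough islands to be tested, and 14 of them (23.7%) passed, where limma called 14.6% of all bins of the genome in either direction, 9.17% as higher and 5.43% as lower. The median log2 change of the locus was 0.44, against -0.034 over all bins. The near desert held 10 of the 14 (of 21 bins tested) and the far desert 4 (of 26). In 11 of the 14 both early WT lists were empty, so kb are given for these and no fold. Without early KO replicate 1 the count was 8. There, 6 of the 14 were removed by the filter on bins, as no list but the early KO lists held them. Those 6 entered the test only through the early KO lists, so they could only be called as higher. With the upper 50% of each list by score the count was also 8.

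The bin with the largest of these rises lay in a block beyond the 3' end of the gene. The bin at 109120001, centred 117 kb downstream of the start, went from 0 in both WT lists to 3.8 and 10 kb in early KO (limma adjusted p = 0.00141). Its neighbour at 109130001 went from 0 to 4.0 and 5.8 kb (limma adjusted p = 0.000356), and that at 109110001 from 0 to 3.0 and 3.2 kb (limma adjusted p = 0.000343). All of these were empty in late WT and in late KO too. The spread measured in these bins came from the early KO pair, as groups at 0 in both lists add almost none. Their p-values thus say little about how well replicates agree, with an SE of 0.39 at 109120001. The block was seen in the early KO lists alone of the 8. As merged islands it spans 109116801 to 109135800, with 10.8 kb in early KO replicate 1 and an unbroken 19.0 kb in replicate 2. No DNase region overlapped it. Its islands ranked low to middle by score, at percentiles 31.5 and 50.4 of their lists.

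Further out, the bins that rose were isolated sites in the desert. At 109070001, 167 kb downstream, H3K27ac covered 0 kb in early WT and 5.0 and 4.8 kb in early KO (limma adjusted p = 0.00132). With all lists cut to equal length this bin no longer passed (limma adjusted p = 0.07). The bin at 109040001 went from 0 to 2.6 and 4.0 kb (limma adjusted p = 0.000464). So did the bin at 108730001, 507 kb downstream, with the same 2.6 and 4.0 kb in KO (limma adjusted p = 0.000464). At 108630001, 607 kb downstream, early KO lists had 3.6 and 3.8 kb and early WT lists none (limma adjusted p = 0.000343). Of the 3 bins that rose from a covered start, that at 108240001 went from 1.8 and 2.4 kb to 5.8 and 5.8 kb (log2 change 1.25, SE 0.19, limma adjusted p = 0.00747), and those at 109010001 and 108410001 rose by log2 values of 1.19 (SE 0.15) and 0.72 (SE 0.11). The bin at 108240001 was named after its values were seen.

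**Figure D3:**
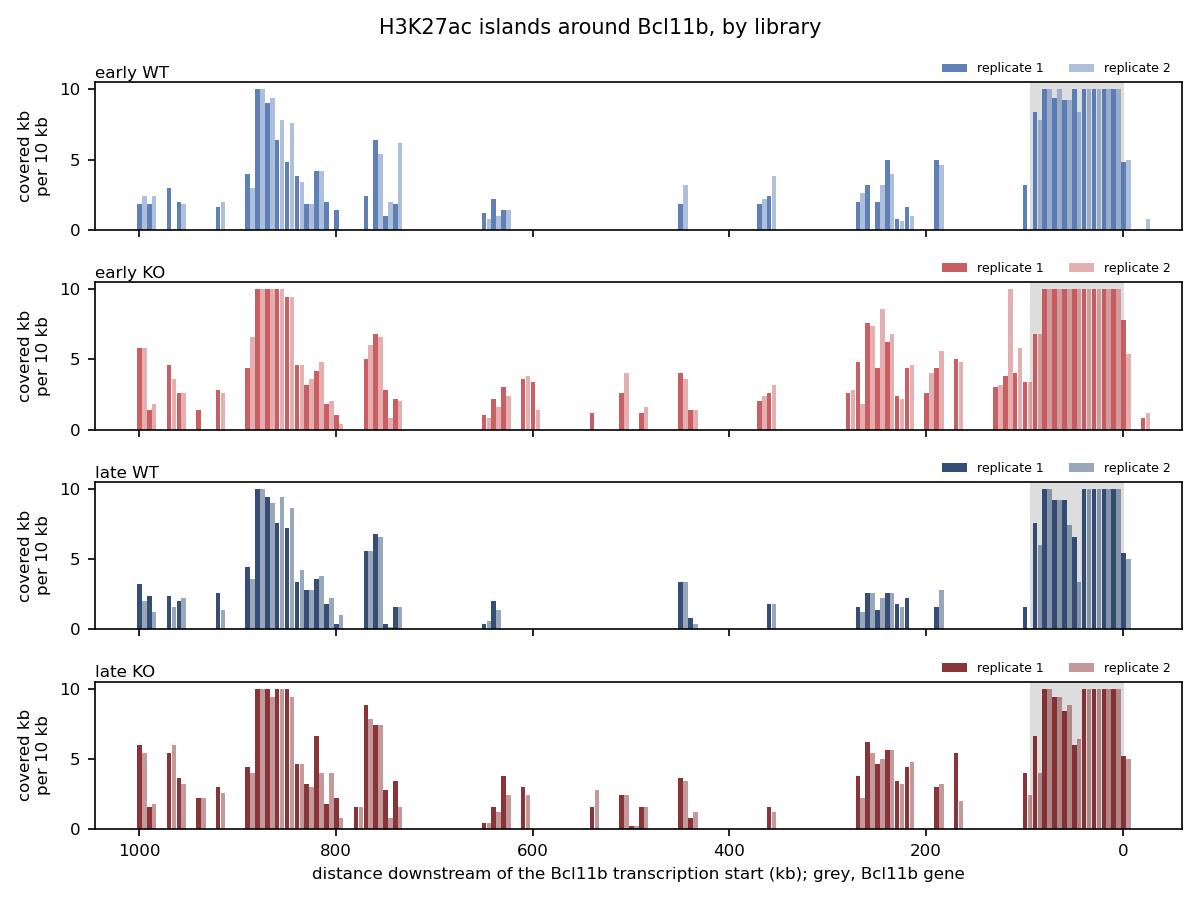
H3K27ac coverage in kb per 10-kb bin (vertical axis) against distance downstream of the Bcl11b transcription start (horizontal axis, gene in grey), with dark bars for replicate 1 and light bars for replicate 2. Most of the gene and of the region 863 kb downstream is covered in all groups, and sites between 107 and 627 kb that are empty in one or both WT panels carry bars in one or both KO panels.

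Part of the difference between genotypes lay in regions that WT lists did not hold and part in regions that were wider in KO lists. Islands of the 8 H3K27ac lists merged into 38 regions, 15 of them held by all 8 lists. In early cells 8 regions (21.1%) had an island in both KO lists and in neither WT list, against 9.36% of merged regions in the genome, and 0 had the reverse (3.79% in the genome). Without early KO replicate 2, when a single KO list decides, the count was 14. In the near desert the 77.0 kb of early KO split into 30.0 kb in regions without an early WT island and 47 kb in regions that early WT lists also held. In the far desert 7.3 kb lay in regions without a WT island and 97.9 kb in shared ones. Of the 15 regions in all 8 lists, 11 were wider in both early KO lists than in both early WT lists and 0 were narrower, where the genome had 21.9% and 18.8%.

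The early KO regions without a WT counterpart were ordered by mean score percentile over all lists that hold them, late KO lists included. The first lay at 108631201 to 108635000, 609 kb downstream, with 3.6 and 3.8 kb in early KO. The block next to the gene came after it, followed by the site at 108733201 to 108737200 (2.6 and 4.0 kb). Shorter ones lay at 109044001 to 109046800 (2.6 and 1.8 kb), 108749801 to 108751600 (1.2 and 1.6 kb) and 108966601 to 108969400 (2.6 and 2.8 kb). Within the early KO lists the first of them stood at percentiles 57.3 and 55.4 and the last at 29.7 and 8.0. The other 2 regions of this kind stood lower by the mean over all lists that hold them, with 18.5 at 109070001 and 16.4 at 108640801. That at 109070001 stood at percentiles 35.5 and 27.8 in the early KO lists and at 8.2 and 2.6 in the late KO lists.

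**Figure D4:**
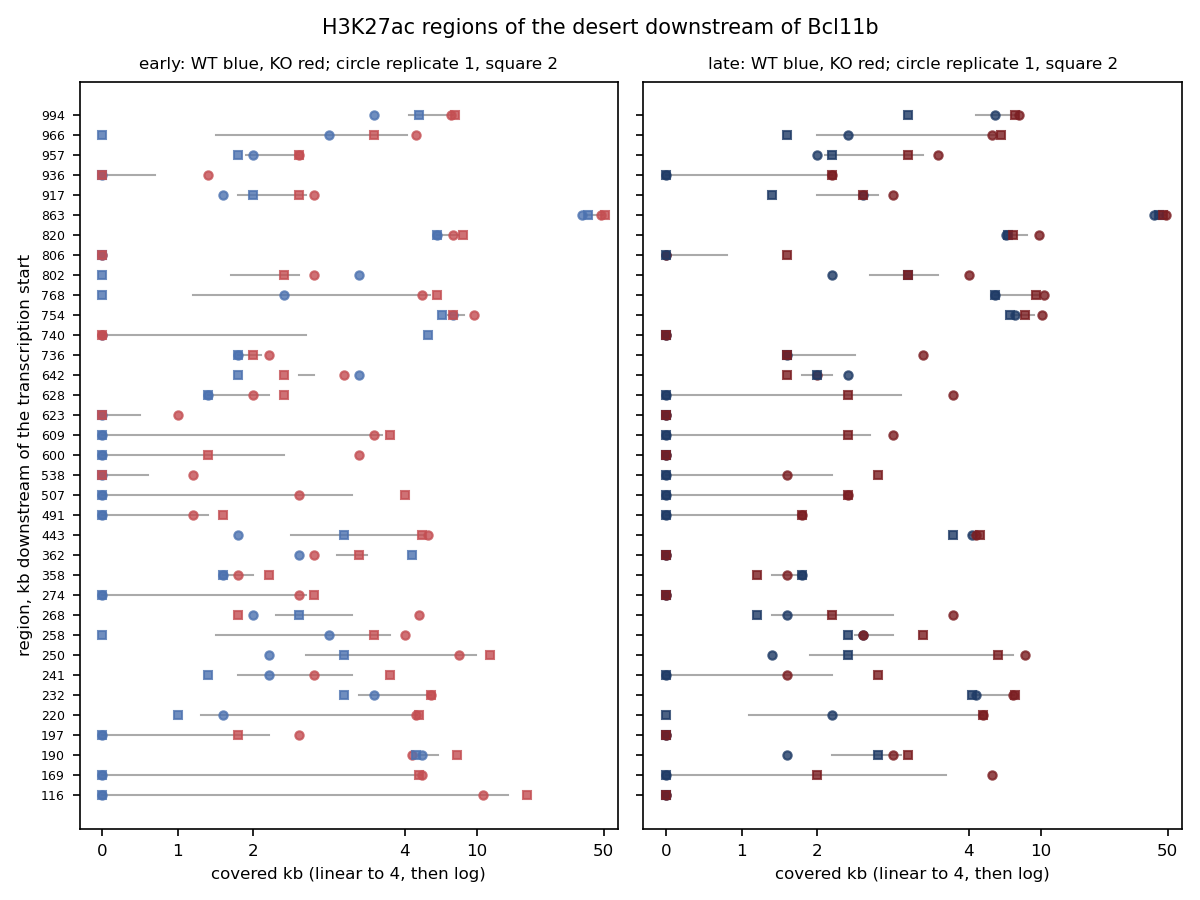
Covered kb of each merged H3K27ac region of the desert (horizontal axis, linear up to 4 kb and logarithmic beyond) by distance downstream of the transcription start (vertical axis, in order), early cells on the left and late cells on the right, with circles for replicate 1, squares for replicate 2 and grey lines between the group means. Most KO points lie to the right of the WT points of the same region, and points at 0 mark lists without an island.

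Regions about 250 and 232 kb downstream were wider in every KO list than in the WT lists of their stage, and both were picked out after their values were seen. At 108986201 to 108998000 the early WT lists had 2.2 and 3.2 kb and the early KO lists 8.0 and 11.8 kb. The late WT lists had 1.4 and 2.4 kb there and the late KO lists 8.2 and 5.8 kb. Its best island stood at percentile 26.1 to 33.2 of the WT lists and at 82.2 to 92.5 of the KO lists. At 109006001 to 109013200 the early WT lists had 3.6 and 3.2 kb and the early KO lists 5.6 and 5.6 kb. The late WT lists had 4.4 and 4.2 kb there and the late KO lists 7.0 and 7.2 kb, at percentiles 51.3 to 60.1 in WT and 87.4 to 90.6 in KO lists. Percentiles are places within lists of unequal length, so no change is read from them. In the bin fit the parts of the first region, at 108980001 and 108990001, did not pass in early cells (limma adjusted p = 0.123 and 0.113) or in late cells (0.727 and 0.16). Of the second, the bin at 109010001 passed at both stages, and that at 109000001 passed in late cells alone, where it went from 2.6 and 2.6 to 5.6 and 5.6 kb (log2 change 0.94, SE 0.13, limma adjusted p = 0.0076). Early cells had limma adjusted p = 0.0736 there, and the difference between the stages did not pass (limma interaction adjusted p = 0.221).

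In late cells, where 4-OHT came after a first Th2 culture, the bins that passed were again all higher in KO. Of 59 bins 9 (15.3%) rose in late KO and none fell, where limma called 6.75% of the genome's bins in either direction, 3.99% as higher and 2.76% as lower. Without late KO replicate 2 the count was 5. The median log2 change of the locus was 0.24, against -0.04 over all bins. Of the 9, 6 had also risen in early KO, which is a count from separate libraries with a shared estimate of spread. The share of late rises in the genome that had also risen early is not given here, so no more is read from that count. These 6 are the bins at 109070001 (0 kb for late WT, 5.4 and 2.0 kb in late KO, limma adjusted p = 0.00469), 108630001 (0, then 3.0 and 2.4 kb, 0.00105), 108730001 (0, then 2.4 and 2.4 kb, 0.00134), 108750001, 108240001 and 109010001. The first did not pass with lists cut to equal length (limma adjusted p = 0.531), and that at 108630001 did not with the upper 50% of each list (log2 change -0.038, limma adjusted p = 0.996).

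The other late rises lay in the far desert and at 109000001. At 108610001, 627 kb downstream, late WT lists had no island and late KO lists had 3.8 and 2.4 kb (limma adjusted p = 0.0011). Early WT lists covered 1.4 and 1.4 kb of that bin, and with the upper 50% of each list its late change was -0.038 (limma adjusted p = 0.996). The bin at 108460001, 777 kb downstream, had 1.6 and 1.6 kb in late KO and none in the other 6 lists (limma adjusted p = 0.00115). It entered the test only through the late KO lists, so it could only be called as higher there. The bin at 108750001, in the near desert, is one of those listed above that rose at both stages. Late KO lists had 1.6 and 1.6 kb there and late WT lists none (limma adjusted p = 0.0015).

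As regions, late KO cells again had 8 of 38 (21.1%) without a late WT island, against 4.71% in the genome, and 0 of the reverse kind (3.37%). Without an island in any WT list and with one in every KO list were 4 of the 38 regions. The share of such regions in the genome is not given here. They were those at 108631201, 108733201, 108749801 and 109070001. The last had 5.0 and 4.8 kb in early KO and 5.4 and 2.0 kb in late KO lists. Among the late regions, 108611601 to 108615400 (3.8 and 2.4 kb) and 108998801 to 109003200 (1.6 and 2.8 kb) had islands in early WT but not in late WT lists. Of the 15 regions in all 8 lists, 10 were wider in both late KO lists and 1 was narrower (19.0% and 13.2% in the genome). In the near desert, 12.3 of the 46.2 kb of late KO lay in regions without a late WT island, and in the far desert 8.8 of 111.7 kb.

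Whether the KO change differed between the stages was tested in the same fit. It differed in 8 of 59 bins, 2 with a higher and 6 with a lower change in late cells (13.6%, against 10.1% of the bins of the genome, 3.95% higher and 6.18% lower), a share near that of the genome. Of the 6, 5 lay in the near desert, and all 6 had islands in both early KO lists and in no other list. Bins had to hold islands in 2 or more libraries, so leaving out either early KO library removed these 6 before any test. Their loss in those settings was fixed in advance. So was the direction of their calls, as these 6 bins passed the filter only through the early KO lists, where they are high. Their lower change in late cells is therefore a description and not support. The counts were then 3 higher and 0 lower without replicate 1, and 2 higher and 0 lower without replicate 2. Without late KO replicate 1 they were 1 higher and 4 lower. From early to late WT cells H3K27ac differed in 6 bins, 3 up and 3 down (10.2%, against 16.3% in the genome, 9.54% up and 6.77% down), and 11 passed without early WT replicate 1. Among these, the bin at 108870001, 367 kb downstream, fell from 1.8 and 2.2 kb to 0 (limma adjusted p = 0.000537), and that at 108610001 fell from 1.4 and 1.4 kb to 0 (0.00178). With the upper 50% of each list the second of these did not pass (log2 change 0.0, limma adjusted p = 1.0). The bin at 108800001 went from 0 to 0.8 and 0.4 kb (limma adjusted p = 0.0324), a call that did not hold in most of the other settings. Bins at 109010001 and 108410001 rose by log2 values of 0.92 and 0.56, and that at 109000001 fell by 0.64 on the log2 scale. The call at 108410001 was lost without any 1 of the 4 WT libraries (limma adjusted p = 0.068 to 0.0863). That at 109000001 was lost without late WT replicate 1 or 2 (limma adjusted p = 0.112 and 0.0643) with lists cut to equal length (0.432) and with the upper 50% of each list (0.85).

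In KO cells 8 bins differed between late and early, 1 up and 7 down (13.6%, against 9.6% in the genome, 4.65% up and 4.95% down). All of the 7 but that at 108870001 had islands in the early KO lists alone, so the direction of their calls was fixed by the filter on bins. The filter on bins therefore removed them whenever either early KO library was left out. Without early KO replicate 1 there were 3 up and 1 down, and without replicate 2 there were 1 up and 1 down. The block next to the gene accounts for 3 of the 7 that fell, with adjusted p in limma of 0.00201, 0.000738 and 0.000738 for the bins at 109120001, 109130001 and 109110001. The bins at 109040001, 108960001 and 108640001 also fell to 0, from 2.6 and 4.0, 2.6 and 2.8, and 3.4 and 1.4 kb, and the bin at 108870001 fell from 2.0 and 2.4 kb to 0. The bin at 108460001 was the 1 that rose. It was held by the late KO lists alone, so its direction was fixed in the same way. The comparisons with early KO and with early WT share those libraries with the early KO comparison above, so their calls do not support one another.

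The H3K27ac regions that covered most length were the gene (109146001 to 109245400, 81.0 to 95.6 kb) and, in the far desert, a region at 108353401 to 108404600, 863 kb downstream. In that second region early WT lists had 38.0 and 41.2 kb, early KO lists 48.4 and 50.6 kb, late WT lists 42.0 and 44.8 kb and late KO lists 49.0 and 47.4 kb. It stood at percentile 98.8 or above in all 8 lists, overlapped 6 DNase regions, and was wider in each KO list than in the WT lists of its stage. The bin at 108360001 inside it was full in all 8 lists. Next came regions at 108482601 to 108492800 (6.4 to 10.2 kb), 108416401 to 108426600 (6.0 to 9.8 kb) and 108243401 to 108252400 (3.2 to 7.6 kb), all in the far desert. In WT cells the far desert carried more H3K27ac than the near desert, at 73.3 against 25.4 kb in early and 79.5 against 19.2 kb in late cells, over equal lengths.

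Open chromatin over the gene was patchy. Its covered length was lower in KO on average, in a segment test that could not pass after adjustment. In the gene segment early WT libraries had 30.0 and 44.4 kb of DNase islands and early KO libraries 17.2 and 32.4 kb. Late WT libraries had 36.8 and 39.4 kb and late KO libraries 15.0 and 20.2 kb. The late KO libraries lay below both late WT libraries, and the early groups overlapped. How often windows of the genome showed that late order is not given here. Over the genome the late KO DNase lists covered 25.9 and 26.2 Mb and the late WT lists 44.7 and 52.4 Mb. Over both stages the difference of KO minus WT was -16.45 kb (21.2 ± 7.77 against 37.65 ± 6.00 kb, SD, n = 4, exact two-sided permutation p = 0.0571, adjusted p = 0.1713). In 11.9% of the 110-kb windows of the genome all 4 KO lists lay below all 4 WT lists, and the gene segment, where 1 early KO library exceeded 1 early WT library, was not among them. As a share of each library's covered length the segment held 0.0656% in early WT and 0.0603% in early KO, and in late cells 0.0788% for WT and 0.0674% for KO. The 2 late KO lists, the shortest, are among those counted here. With lists cut to equal length the difference was -11.45 kb (exact permutation p = 0.0857, n = 4, adjusted p = 0.2057).

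The most prominent open regions of the locus were at the start of the gene and in the far desert. By mean percentile they were led by the region at the transcription start (109240001 to 109245200, mean percentile 85.5), with 2.0 and 5.2 kb for early WT, 2.4 and 3.0 kb for early KO, 3.4 and 4.8 kb for late WT and 0.8 and 0.6 kb for late KO. Its bin did not pass in late cells (log2 change -1.57, SE 0.33, limma adjusted p = 0.0625). Then came 108382201 to 108387600 inside the large far-desert region (2.4 to 5.0 kb), 109228201 to 109239400 in the gene (4.0 to 8.6 kb), 108882801 to 108885200 in the near desert (0.8 to 1.8 kb) and 108359601 to 108371800 in the far desert (0.8 to 9.8 kb). The last was the most uneven, with 0.8 kb in late KO replicate 2. The bin at 109220001, 17 kb into the gene, was the only bin of the locus where DNase coverage passed as lower in KO, from 3.2 and 2.8 kb in late WT to 0 in both late KO lists (limma adjusted p = 0.036). That was 1 of 43 bins tested, where limma called 2.16% of the genome's bins, 0.343% as higher and 1.81% as lower, and it did not pass under 11 of the other settings, leaving out late WT or late KO libraries among them. With lists cut to equal length, or with their upper 50%, the 1 late bin that passed was another one and was higher in KO, at 108990001 (limma adjusted p = 0.0386 and 0.0428).

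Within the gene, 14 windows of 200 bp were open in every WT and in no KO list, of 275 windows open in any list, against 1.08% of open windows in the genome. The longest run of them was 109198801 to 109200200. The bin at 109190001, which holds most of it and was named after its values were seen, had 1.2 and 1.4 kb in early WT lists, 1.6 and 1.2 kb in late WT lists and 0 in the 4 KO lists. That bin did not pass at either stage (limma adjusted p = 0.0881 in early and 0.0816 in late cells). No window was open in every KO and in no WT list (0.112% in the genome).

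**Figure D5:**
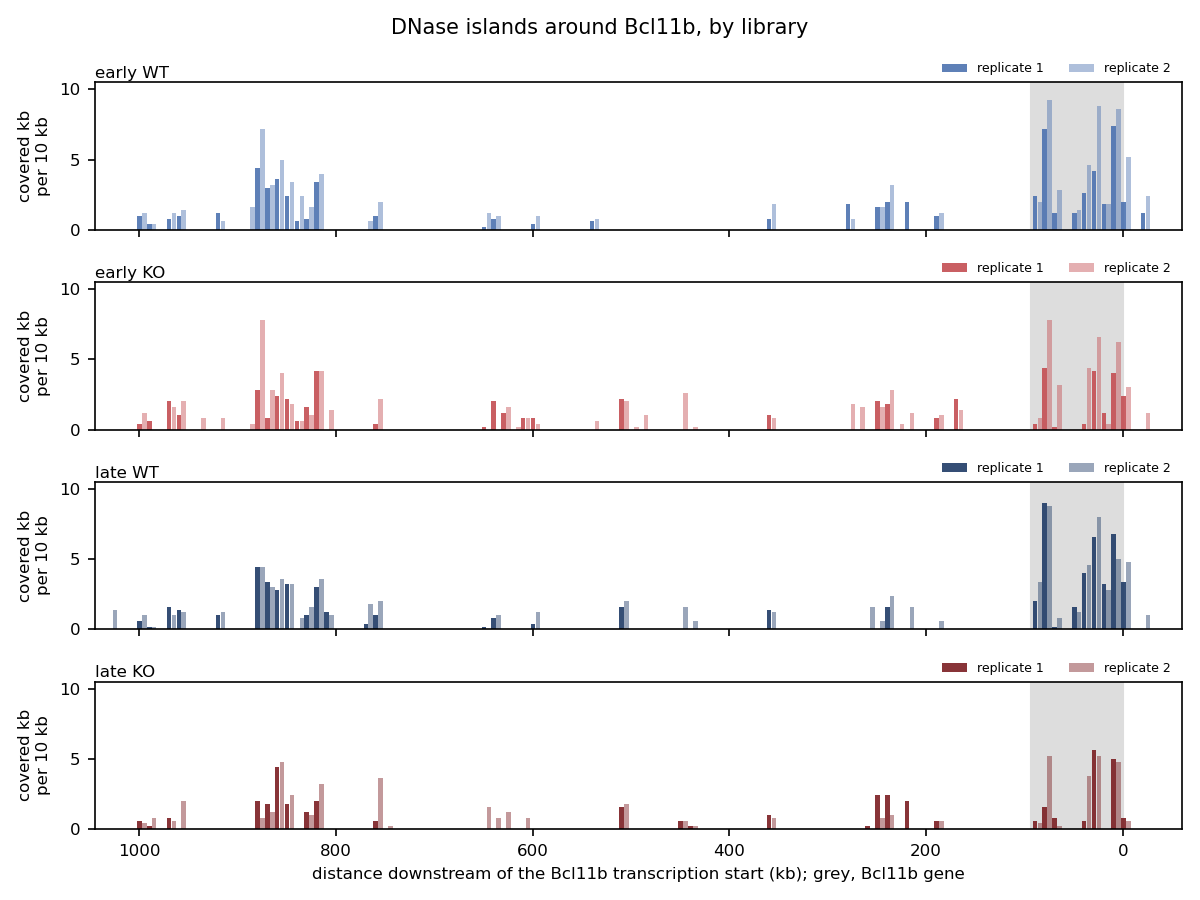
DNase coverage in kb per 10-kb bin (vertical axis) against distance downstream of the Bcl11b transcription start (horizontal axis, gene in grey), with dark bars for replicate 1 and light bars for replicate 2. Open chromatin concentrates in the gene and near 857 kb, late KO lists have the lowest mean coverage of the gene segment (17.6 kb), and at 507 kb bars are missing in the early WT panel alone.

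In the desert, the DNase coverage of the 2 genotypes overlapped in the lists as deposited, and in the near desert this depended on list length. The near desert had 9.8 and 9.4 kb for early WT, 10 and 19.2 kb for early KO, 4.6 and 12.2 kb for late WT and 11.0 and 5.8 kb for late KO, with overlap over both stages (exact permutation p = 0.4857 for KO against WT, n = 4, adjusted p = 0.5923). Without early KO replicate 2 the difference of 2.5 kb became -0.06667 kb. With lists cut to equal length all 4 KO lists lay above all 4 WT lists. The share of 470-kb windows of the genome with this order in cut lists is not given here, so no trait of the locus is read from it. Early WT then had 2.8 and 5.0 kb, early KO 7.0 and 8.6 kb, late WT 3.0 and 2.6 kb and late KO 10.4 and 5.8 kb (difference 4.6 kb, exact permutation p = 0.0286, n = 4, adjusted p = 0.0857). As a share of each library the difference was 0.01664 percentage points (exact permutation p = 0.0571, n = 4, adjusted p = 0.1714). The far desert held 25.0 and 39.0, 24.0 and 35.6, 26.6 and 33.2, and 15.4 and 25.4 kb in the same order of groups (exact permutation p = 0.3143, n = 4, adjusted p = 0.5144). Its difference changed sign with lists cut to equal length, from -5.85 to 1.3 kb.

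DNase passed as higher in early KO at 2 of 43 bins, both of which had also gained H3K27ac (limma called 1.23% of the genome's bins, 0.54% as higher and 0.689% as lower). How many of the DNase rises in the genome had also gained H3K27ac is not given here. At 108730001 both early WT lists had 0 kb and the early KO lists 2.2 and 2.0 kb (limma adjusted p = 0.0467). Late WT lists had 1.6 and 2.0 kb there and late KO lists 1.6 and 1.8 kb. The site, 507 kb downstream, was thus open in late cells of both genotypes, while its H3K27ac was listed in KO cells alone at both stages. Its opening from early to late WT also passed (limma adjusted p = 0.0317, 1 of 43 bins against 2.71% in the genome, 0.593% up and 2.12% down). It was lost without any 1 of the early WT, late WT or late KO libraries (limma adjusted p = 0.114 to 0.413). At 109070001 DNase covered 2.2 and 1.4 kb in early KO and 0 in the other 6 lists (limma adjusted p = 0.0467 against early WT and 0.0343 for its absence in late KO, the only DNase bin of the 43 to pass there, against 2.45% in the genome, 0.197% up and 2.25% down). The early KO call at 108730001 was lost without any 1 of the 8 libraries (limma adjusted p = 0.0691 to 0.476). That at 109070001 was lost without any 1 of the WT or late KO libraries (limma adjusted p = 0.0691 to 0.476). The bin at 109070001 passed the filter on bins only through the early KO lists, so its early rise and late fall were fixed in direction. With lists cut to equal length the early count was again 2 higher bins, but other ones, at 108270001 and 108990001. No DNase bin passed for the difference of the KO change between stages (0 of 43 in limma, and 0.0% in the genome), and 6 bins of the gene and desert had an unadjusted p under 0.05, 2 in each segment.

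Some regions of open chromatin were listed in KO cells alone and others in WT cells alone. Islands of the 8 DNase lists merged into 48 regions, 12 of them in all 8 lists, and 46 of the 48 overlapped an H3K27ac region. The share of DNase regions in the genome with such an overlap is not given here. In early cells 5 regions (10.4%) were open in both KO and neither WT list, against 1.86% in the genome, and 1 was the reverse (8.71%). The 5 were at 108485001, 108613001, 108632601, 108733401 and 109070001, with 0.4 to 2.2 kb per KO list, and the reverse one was a short region at 109054801. In late cells none was open in KO alone (0.721%) and 4 in WT alone (8.33%, against 16.3%), at 108323601, 108438201, 108475801 and 108642201. The early KO count was 12 without early KO replicate 1, the early WT count 9 without early KO replicate 2, and the late WT count 11 without late WT replicate 1 and 0 with lists cut to equal length. Of the 12 regions in all 8 lists, 8 were narrower in both late KO lists than in both late WT lists and 1 was wider (36.3% and 4.09% in the genome). In early cells 2 of the 12 were narrower and 1 wider (25.6% and 3.39%).

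The 2 widened H3K27ac regions near 250 and 232 kb each held a DNase region whose place in the lists also differed. At 108989801 to 108992400 the early WT lists had 1.6 and 1.6 kb of DNase islands and the early KO lists 2.0 and 1.6 kb, at percentiles 38.5 and 47.8 against 88.5 and 94.1. In late cells it covered 0 and 0.6 kb in WT and 2.6 and 0.8 kb in KO. At 109007201 to 109009800 all 8 lists had 1.0 to 2.4 kb, at percentiles 43.3 to 63.7 in the WT lists and 93.7 to 94.5 in the KO lists. The covered lengths of the genotypes overlapped at both DNase regions except at the first in late cells, and the percentiles are given as places within each list alone. The DNase bin at 108990001 did not pass in the lists as deposited (limma adjusted p = 0.856 in early and 0.16 in late cells). It passed as higher in KO with lists cut to equal length (0.0292 and 0.0386) and with the upper 50% of each list (0.034 and 0.0428).

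The stretches of the genome whose coverage was most like that of the Bcl11b gene segment over the 16 libraries were found among 11943 windows of 110 kb by Euclidean distance on the log2(kb + 0.5) scale. They were chr1:132880001-132990000 at a distance of 0.75, chr16:10670001-10780000 at 0.83 and chr15:66550001-66660000 at 0.83. In the first, H3K27ac covered a mean of 90.7 kb in WT and 92.75 kb in KO lists and DNase 34.5 and 19.4 kb. The gene segment of Bcl11b had 89.0 and 92.3 kb of H3K27ac and 37.65 and 21.2 kb of DNase. The windows were picked for likeness over these same lists. They show only that broad acetylation with lower DNase coverage in KO lists also occurs elsewhere.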

How the data were processed

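H3K27ac ChIP-seq (iDeal kit) and DNase-seq were each done on 8 libraries, 4 groups of 2. Per the submitters' processing notes, the authors used CASAVA 2.18, Bowtie2 and SICER 1.1 on mm9. Each deposited list gives the positions and the score of the islands of 1 library. No control library is named, and read depth is unknown. The score was used only to rank islands within a list. Here, covered kb were counted in 10-kb bins of the whole genome and tested with limma 3.58.1 (R 4.3.3) on log2(kb + 0.5). Bins had to hold islands in 2 or more libraries, and libraries were centred on bins covered in all 8, with Benjamini-Hochberg adjustment and a threshold of 0.05. A log2 change is on that scale and understates changes at low coverage. Groups without an island in either list add almost no spread to the shared estimate, so p-values of bins with such groups can be too small. Segments were compared by exact permutation tests (scipy 1.17.1), none of which could pass after adjustment. Scripts were tested on simulated data. Islands that overlap or touch across the lists of an assay were merged into regions.

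Members and lists were chosen with earlier results of these data known. Named were all called bins or the 6 with the largest change per comparison, the start bin, 3 of the fullest bins, and the leading regions of each class; bins and regions outside this rule were named after their values were seen. Replicate numbers were not used to pair the samples in the main fit. Deviations of same-numbered libraries correlated at -0.038 to 0.052 for H3K27ac and at -0.0097 to 0.082 for DNase. Such values cannot show whether same-numbered libraries shared an animal or culture. Alternatives changed the normalization, bins, filter, pseudocount, lists and libraries.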

Additional observations from a re-analysis of the deposited data

Results flagged for a closer look

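At 8 H3K27ac bins of the Bcl11b desert the KO change differed between late and early cells by limma's interaction test, each with 2 libraries per group. The differences of log2 changes depend on the 0.5 kb added, because at least 1 group was at 0 in each bin. Late minus early was 2.07 at 108460001 (adjusted p = 0.00357), where late KO lists alone had islands, and 2.07 at 108610001 (adjusted p = 0.00817), where late WT lists alone had none. With the upper 50% of each list the second of these turned to -2.429 and passed in that direction (adjusted p = 0.000709). It was -2.44 at 108640001 (adjusted p = 0.0353), a call lost in 9 of its 12 other settings, among them without each WT or late KO library (adjusted p = 0.0795 to 0.107). Nearer to the gene it was -2.68 at 108960001 (adjusted p = 0.00287) and -2.9 at 109040001 (adjusted p = 0.00323). In the block past the 3' end it was -2.85 at 109110001 (adjusted p = 0.00286), -3.75 at 109120001 (adjusted p = 0.0088, and 0.0548 without late KO replicate 1) and -3.41 at 109130001 (adjusted p = 0.00287). In these last 6 bins both early KO lists had islands and the other 6 lists had none. They entered the test only through the early KO lists, and that at 108460001 only through the late KO lists. The direction of these calls was therefore fixed by the filter. Groups at 0 in both lists also add almost no spread to the p-values.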

How the results depend on the processing

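The H3K27ac differences of KO and WT in both deserts kept their direction under every alternative run. Several counts of called bins did not hold within 1.5 times, and the cause was not tested. With 50-kb bins, which are fewer, H3K27ac counts were 9 (early KO), 5 (late KO), 0 (interaction) and 2 (late against early KO), and all 4 DNase counts were 0. With bins shifted by 5 kb the H3K27ac interaction and the late against early KO count were 4 each, and DNase gave 1 (early KO) and 0 (late against early WT). With the upper 50% of each list, H3K27ac gave 8 (early KO) and 5 (interaction), and DNase 1 (interaction), 4 (late against early KO) and 0 (late against early WT). There the bin at 108610001 reversed, to -2.429 for the interaction (limma adjusted p = 0.000709) and -0.038 for late KO, and that at 108630001 to -0.038 for late KO.

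DNase calls were 0 in all 4 comparisons with any under a pseudocount of 2 kb, quantile normalization or the replicate block. With no filter, early KO and late against early WT gave 0, and with no centring the interaction gave 2 and late KO 3. With equal lists both DNase time counts were 0, the WT time change at 108730001 was -0.005, the far desert difference of KO and WT was 1.3 kb, and regions were 0 (early WT only), 4 (late KO only) and 0 (late WT only). Regions found in early WT only were 0 with islands within 1 kb merged and 2 with at least 50% covered, which gave 7 for late WT only. As percent of each library, DNase differences reversed to 0.01743 (far desert, KO minus WT), 0.004506 (far desert, late minus early) and 0.01015 (gene, late minus early). The replicate block gave 15, 8, 7, 6 and 8 H3K27ac bins, against 14, 9, 8, 6 and 8 without it.

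Leaving out 1 library gave H3K27ac counts of 8 to 19 (early KO), 5 to 11 (late KO), 2 to 9 (interaction), 5 to 11 (WT time) and 2 to 11 (KO time), and DNase counts of 0 to 0, 0 to 1, 0 to 3 and 0 to 0 (early KO, late KO, WT time, KO time). H3K27ac regions were 8 to 14 (early KO only) and 0 to 1 (early WT only); DNase regions were 5 to 12, 1 to 9, 0 to 4 and 4 to 11 (early KO, early WT, late KO, late WT only). The late minus early difference ran from -0.9167 (without late KO replicate 1) to 12.33 kb for H3K27ac in the far desert and from -7.75 to 1.317 kb for DNase in the gene (1.133 without late KO replicate 1). The DNase near desert difference of KO and WT ran from -0.06667 to 4.4 kb. With 3 against 4 libraries the smallest exact permutation p is 0.0571, so segment tests could not pass. After adjustment they could not pass with all libraries either. A bin held by only 2 libraries leaves the bin test when either is left out, so such a loss was fixed by the filter. Unknown depth limits every absent island.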
